A study of Mus musculus with 12 samples.

Results

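The 60 genes described here encode enzymes that add methyl groups to lysine and arginine residues of histones and other proteins, or remove them. They were chosen by symbol from the 23923 genes in the files, by a rule that reads only the symbols. The choice took every Setd, Suv, Prdm and Prmt gene and the Kdm demethylases, together with Ehmt1, Ehmt2, Ezh1, Ezh2, Nsd1, Whsc1, Whsc1l1 and Dot1l. The sex-linked Kdm5c, Kdm5d and Kdm6a were left out. RNA-seq was performed on the tibialis anterior, a fast-twitch muscle of the lower hind limb, of 12 mice aged 6 weeks, with 1 library per mouse. The study stated that, after its histology of both sexes, its further experiments used tissue from males only. The comparison asks whether other methylation enzymes changed at the RNA level where Smyd1, a lysine methyltransferase gene of striated muscle, was targeted.

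All 12 mice carried Myf6 cre/+, which expresses Cre recombinase from the Myf6 locus in myofibers, and a Rosa26 reporter allele. The strain was given as C57BL6/J;129S1/SvImJ for both groups. The 6 control mice were Smyd1 flox/+ and the 6 conditional knockout (CKO) mice were Smyd1 flox/-. Control myofibers therefore kept 1 intact Smyd1 allele after recombination. In CKO mice, cells without Myf6-driven Cre, such as fibroblasts and endothelial cells, kept the floxed allele. Whole muscle was sequenced, so fewer cells of a type and less RNA per cell cannot be told apart.

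Smyd1 RNA did not separate the groups. Its level was 47.1, 33.4, 41.1, 32.9, 33.8 and 36.1 FPKM, a count of fragments scaled to the length of the transcript and the size of the library, in controls 1 to 6. In CKOs 1 to 6 it was 38.0, 32.1, 32.5, 27.8, 39.9 and 34.5 FPKM. Only 3 of 6 CKO values lay below the lowest control, and the log2 fold change was -0.13 ± 0.116 (SE), with an adjusted P of 0.545 by limma. After median-ratio scaling, described below, it was -0.32 with an adjusted P of 0.0797. A value for the whole gene includes exons outside the floxed part, whose position was not given in the sources used here, so this level does not check the deletion. At the protein level, the study reported that western blots of CKO tibialis anterior showed no detectable SMYD1. The groups are called control and CKO after their labels.

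Histone methylation is written by SET domain and related enzymes and erased by flavin-dependent or Jumonji-type demethylases. Its effect depends on the residue: methylation of H3K4 and H3K36 accompanies transcription, whereas H3K9, H3K27 and H4K20 methylation is best known from silenced or compacted chromatin. In muscle, Polycomb and H3K9 methyltransferases hold muscle genes silent in precursors, and several demethylases and arginine methyltransferases take part in differentiation of satellite cells. Many of these enzymes also methylate proteins other than histones.

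The muscle expressed a broad range of the enzymes, and their RNA levels were low beside that of Smyd1. At least 0.1 FPKM in 6 or more of the 12 libraries was found for 53 of the 60 genes, and these were among the 12695 genes tested. The 7 below this minimum were Kdm4d, Prdm6, Prdm11, Prdm12, Prdm13, Prdm14 and Prmt8. Prdm12, Prdm13 and Prdm14 were listed at 0 in all 12 libraries. Kdm4d was listed at 0 in every control and at 0.0197, 0.0267 and 0.0706 FPKM in CKOs 1, 3 and 5. None of the 60 genes had a control mean above that of Smyd1 (37.4 ± 5.64 FPKM, SD, n = 6). The mean over all libraries was at least 5 FPKM for 7 enzymes, at least 1 FPKM for 35 and from 0.1 to 1 FPKM for the remaining 18 that were tested. The order of levels was led by Setd7, Setd8, Setd3, Kdm7a, Setd2, Nsd1 and Prmt1. The plot of levels in all libraries shows that the order spanned from 21.1 FPKM (Setd7) to 0.134 FPKM (Prdm1) as means over 12 libraries.

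**Figure D1:**
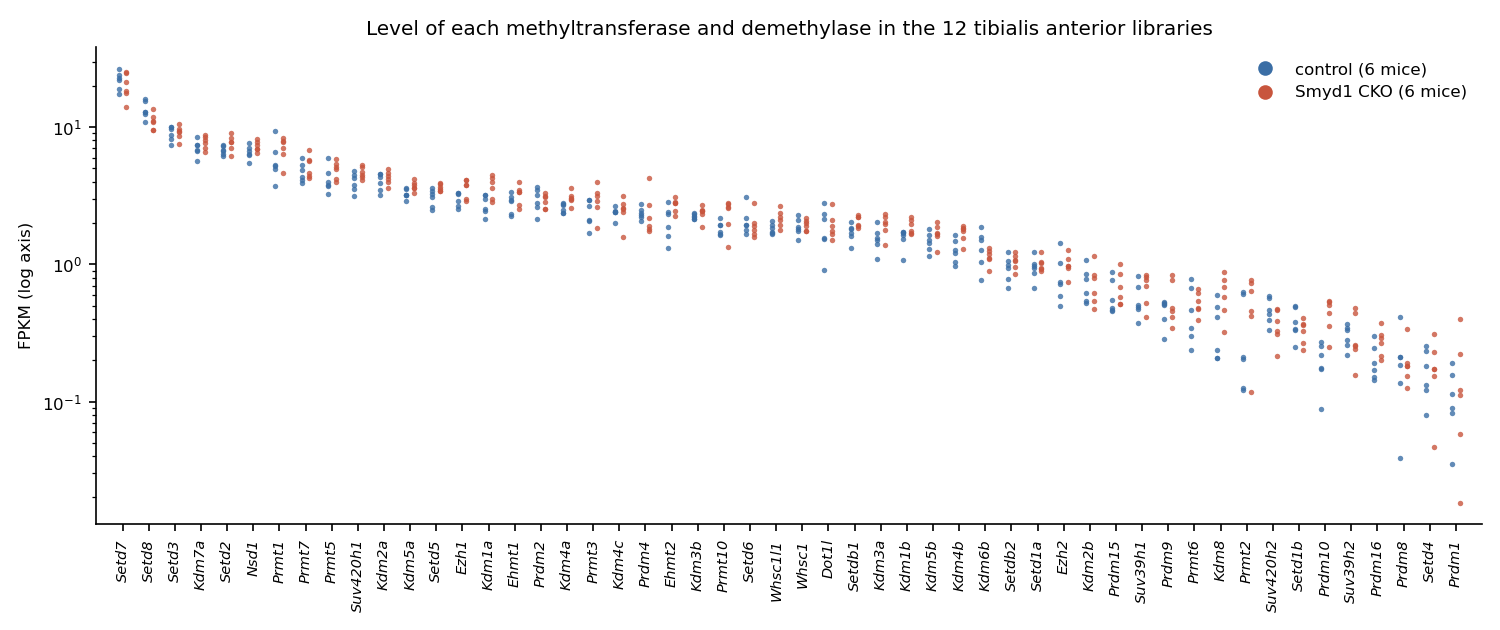
FPKM of 52 of the 53 tested enzymes on a log axis, ordered by mean level, with 1 point for each of the 6 control and 6 CKO mice. The points of the groups overlap for every gene, from Setd7 at the left (mean 21.1 FPKM) to Prdm1 at the right (mean 0.134 FPKM).

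The sequences upstream of Setd7, Setd8 and Prdm10 are shown because Setd7 had the highest level of all 60 genes and the other genes were past the unadjusted threshold under both scalings described below. They are the 250 bases before the first start listed in RefSeq, build GRCm38.p6. For Setd7 1 start was listed, for Setd8 3 and for Prdm10 2, and windows of the further starts are not shown. Each sequence is printed from 5′ to 3′ on the gene's strand, with every CG dinucleotide in capitals. Setd7 lies on the minus strand (chr3:51560824-51561073). Setd8, listed in RefSeq under its current symbol Kmt5a, is on the plus strand (chr5:124439680-124439929), as is Prdm10 (chr9:31280299-31280548).
Setd7: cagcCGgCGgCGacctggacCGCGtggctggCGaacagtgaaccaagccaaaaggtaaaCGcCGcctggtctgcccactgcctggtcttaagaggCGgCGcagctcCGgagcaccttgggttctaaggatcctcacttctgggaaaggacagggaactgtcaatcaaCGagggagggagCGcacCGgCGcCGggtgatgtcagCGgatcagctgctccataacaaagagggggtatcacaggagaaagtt
Setd8: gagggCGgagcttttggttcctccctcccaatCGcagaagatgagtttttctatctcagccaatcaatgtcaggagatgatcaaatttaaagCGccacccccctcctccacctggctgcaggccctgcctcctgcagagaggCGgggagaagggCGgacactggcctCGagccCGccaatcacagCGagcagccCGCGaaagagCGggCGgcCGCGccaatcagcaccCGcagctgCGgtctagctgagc
Prdm10: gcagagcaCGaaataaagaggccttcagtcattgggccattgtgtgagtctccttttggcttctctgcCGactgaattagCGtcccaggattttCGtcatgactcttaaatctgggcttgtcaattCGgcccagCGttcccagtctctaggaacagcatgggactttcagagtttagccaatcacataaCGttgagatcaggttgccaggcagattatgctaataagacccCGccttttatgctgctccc
These windows hold 17, 16 and 8 CG dinucleotides in Setd7, Setd8 and Prdm10. The letters CCAAT, counted on both strands, occur 4 times in the Setd8 window and 2 times in the Prdm10 window. RefSeq windows were matched for 47 of the 60 genes. An observed-to-expected CG ratio above 0.6 was found in 39 of these 47 (83.0%), in 67.3% of the 9869 matched promoters of all tested genes and in 34.5% of all 27025 promoters. CCAAT on either strand was in 51.1% of the 47 windows, 36.01% of those of tested genes and 34.5% of all promoters. These matches describe letters in the window only.

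None of the 53 enzymes differed between the groups at an adjusted P below 0.05 by limma. Among all 12695 genes tested, 257 were higher in the CKO (2.02%) and 34 were lower (0.268%) by the same rule. This count depended on which mice were included. Without control 1, 1067 were higher and 69 lower. Leaving out any other mouse gave 84 higher (without CKO 1) to 318 higher (without CKO 5), and 18 to 57 lower. At an unadjusted P below 0.05, 7 enzymes were higher: Prdm10, Kdm1a, Kdm4b, Kdm8, Ehmt2, Kdm4a and Setd5. Among all genes, 18.1% were higher at that threshold. Only Setd8 was lower, where 1.76% of all genes were. The exact permutation test over the 924 assignments of mice, two-sided, gave 12 higher and 1 lower at an unadjusted P below 0.05, where 18% and 1.66% of all genes were. It gave 0 after adjustment over all genes, for the enzymes and for all genes alike. In no enzyme did all 6 CKO values lie outside the range of the 6 controls, a pattern shown by 2.23% of all genes in the higher direction and 0.189% in the lower direction. The most separated were Prdm10 and Kdm4a, each with 5 of 6 CKO values above every control.

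The deposited FPKM carried a shift common to most genes, and directions below are to be read against it. The median log2 fold change over all tested genes was 0.18, and that of the 53 enzymes was also 0.18. A positive value was found for 43 of the 53 (81.1%) and for 77.9% of all genes. Median-ratio scaling, which sets the median library-wide shift aside, moved the medians to 0.01 for all genes and 0.01 for the enzymes, with 29 of 53 positive (51.2% of all genes). It turned 14 enzymes from positive to negative, to values between -0.15 and -0.02: Dot1l, Kdm2a, Kdm3b, Kdm4c, Kdm7a, Nsd1, Prdm8, Prmt7, Setd1a, Setd2, Setd3, Setd4, Setdb2 and Whsc1. After scaling, the enzymes past the unadjusted threshold were 1 higher (Prdm10; 6.62% of all genes) and 2 lower (Setd8 and Suv420h2; 7.44% of all genes). At the adjusted threshold 0 were higher (0.764% of all genes) and 1, Setd8, was lower (0.709% of all genes). Prdm10 and Setd8 were the enzymes past the unadjusted threshold under both scalings.

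**Figure D2:**
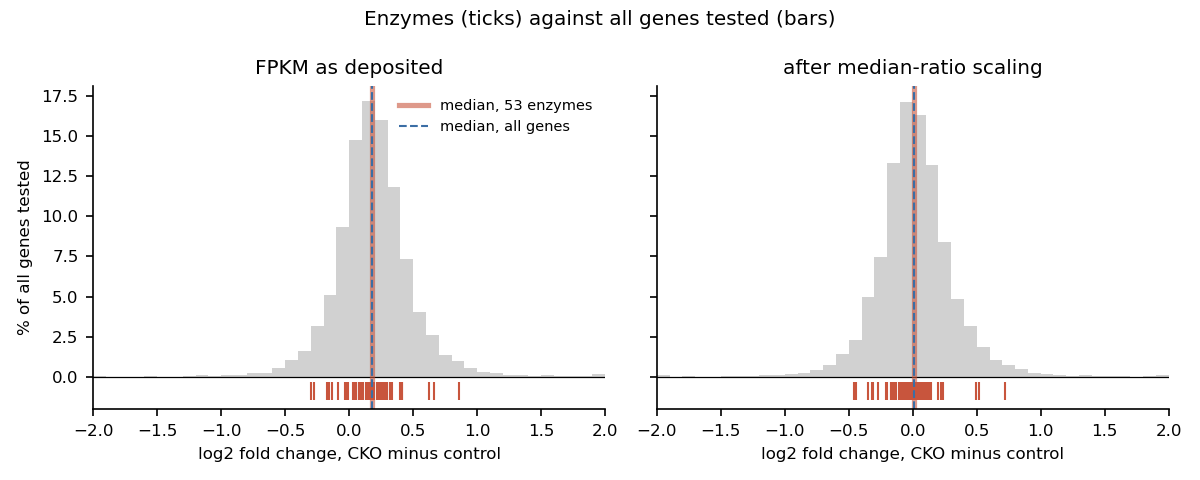
Distribution of log2 fold changes (CKO minus control) for all 12695 genes tested (bars, in % of genes, values beyond 2 drawn in the end bins) and for the 53 enzymes (ticks), with FPKM as deposited and after median-ratio scaling. The median of the enzymes lies on that of all genes at 0.18 in the left panel and at 0.01 in the right panel.

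The spread between mice set how large a change could have gone unseen. The 95% interval of the fold change, taken on FPKM + 0.1, lay below 2-fold and above its inverse for 50 of the 53 enzymes. This held both as deposited and after scaling. The exceptions were Kdm8, Prdm10 and Prmt2, all below 1 FPKM, and no interval reached a halving on that scale. An upper bound below 1.5-fold was found for 33 enzymes as deposited and for 48 after scaling. The median SE was 0.156 on the log2 scale. Log2 fold changes were taken on log2(FPKM + 0.1), which understates the change of genes with low FPKM. In FPKM alone the bounds of such genes can be wider than those given, and those bounds were not worked out.

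**Figure D3:**
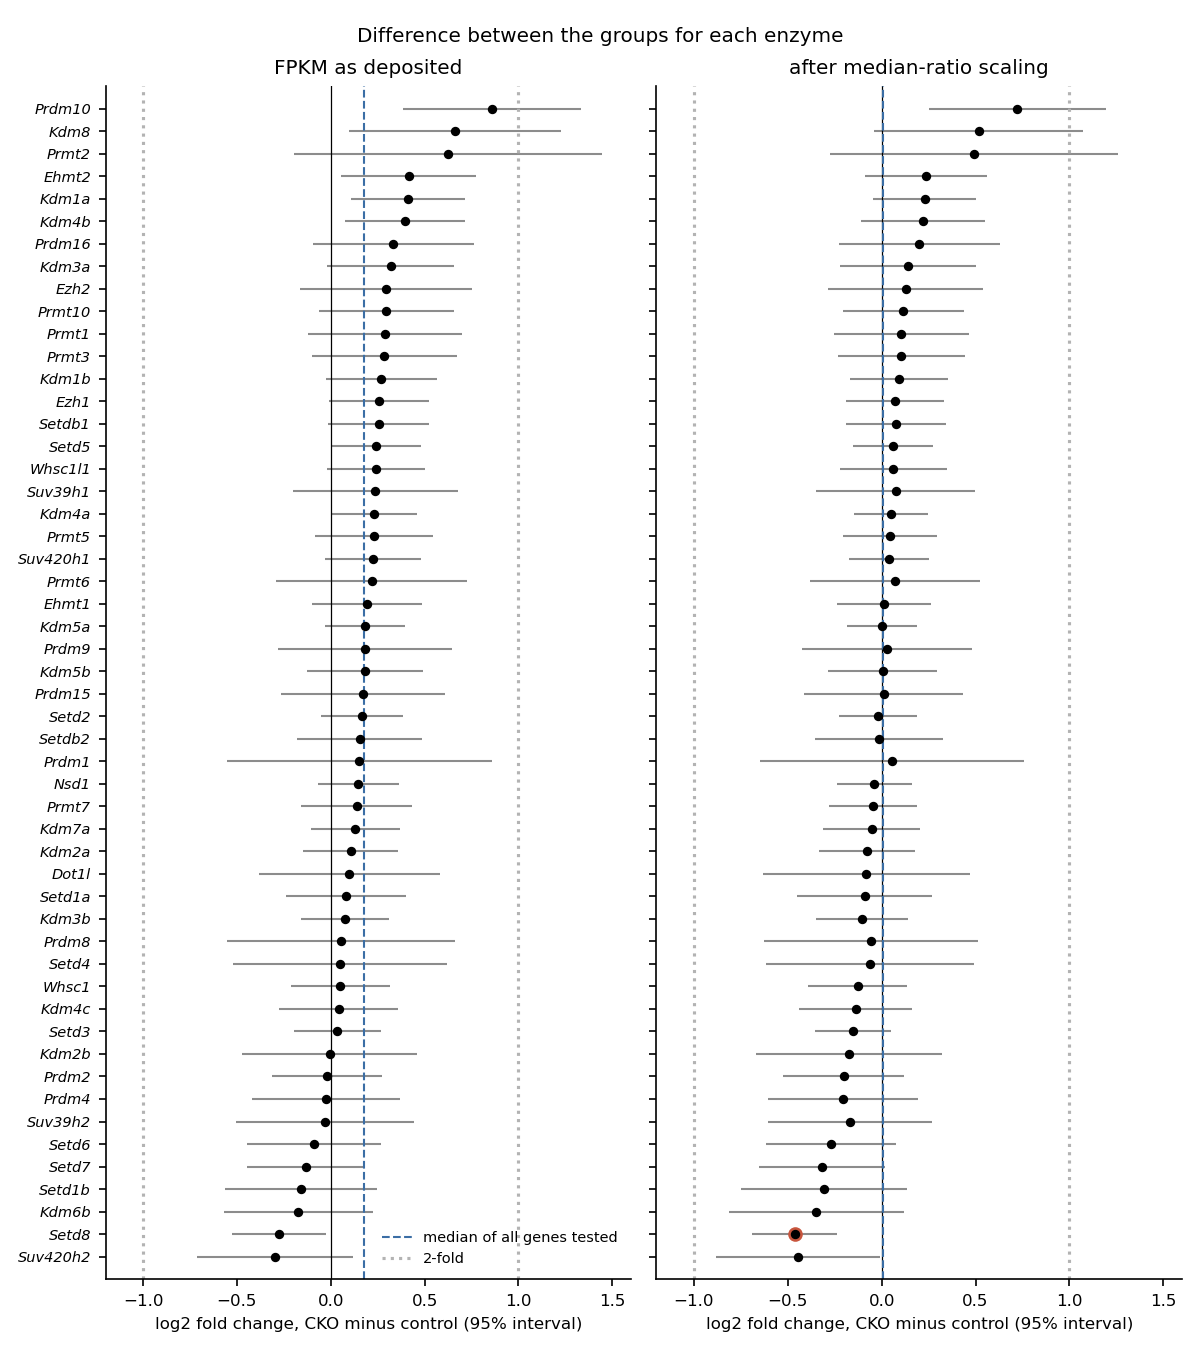
Log2 fold change (CKO minus control) with its 95% interval for 52 of the 53 tested enzymes, as deposited and after median-ratio scaling, with the median of all genes (dashed) and 2-fold limits (dotted). Setd8, marked in the right panel, is the only enzyme past the adjusted threshold in either panel, and only the intervals of Kdm8, Prdm10 and Prmt2 cross a 2-fold limit.

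Setd8 (Kmt5a), which places the first methyl group on H4K20, showed the clearest lower level. Controls ranged from 10.9 to 16.0 FPKM with a median of 12.9, and CKOs from 9.48 to 13.5 FPKM with a median of 11.0. The groups overlapped, with 3 CKOs below the lowest control and none above the highest. Of these 3, CKO 2 at 10.9007 FPKM was almost level with the lowest control at 10.9028 FPKM. The means were 13.4 ± 1.96 and 11.1 ± 1.52 FPKM (SD, n = 6 each). The log2 fold change as deposited was -0.28 ± 0.118 (SE), with an adjusted P of 0.211 by limma. After scaling it was -0.46 (95% interval -0.69 to -0.24), with an adjusted P of 0.0448 by limma. This call was at the edge of the threshold: leaving out 1 mouse at a time gave -0.52 to -0.40 with adjusted P values from 0.0143 to 0.110, past the threshold in 4 of 12 cases. Leaving out any of controls 2, 3, 5 and 6 or CKOs 1, 2, 3 and 6 ended it, and the adjusted exact permutation P after scaling was 0.158.

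The other H4K20 enzymes did not show one direction. Suv420h1 (Kmt5b), which adds further methyl groups to H4K20, was 3.15 to 4.83 FPKM in controls (median 4.02) and 4.12 to 5.31 FPKM in CKOs (median 4.58). Its log2 fold change was 0.22 (95% interval -0.03 to 0.48), and 0.04 after scaling. Suv420h2 (Kmt5c), a relative with the same activity, was 0.465 ± 0.0998 FPKM in controls and 0.363 ± 0.0987 FPKM in CKOs (SD, n = 6 each), with a log2 fold change of -0.30 (95% interval -0.71 to 0.12) and -0.45 after scaling. Dot1l, the H3K79 methyltransferase, varied widely among controls, from 0.910 to 2.80 FPKM, and its log2 fold change was 0.10 (95% interval -0.38 to 0.58), and -0.08 after scaling. Suv420h1, Suv420h2 and Dot1l were named after their values were seen.

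Ratios of a pair of enzymes within a mouse do not depend on library scaling. The ratio of Setd8 to Suv420h1 was 2.89 to 4.06 in controls and 1.85 to 2.65 in CKOs. All 6 CKO ratios lay below all 6 control ratios. This pair was picked after its values were seen and is given without a test. Groups that did not overlap were found for 3 of the 1378 pairs of tested enzymes (0.218%), and 2 of the 924 assignments of mice separate any 1 pair completely, so no difference is read from it. The ratio of Ezh1 to Ezh2 was 2.28 to 5.06 in controls and 2.96 to 4.34 in CKOs, and the ratio of Kdm1a to Kdm1b was 1.42 to 2.08 and 1.63 to 2.56. Suv39h1 to Suv39h2 was 1.37 to 3.17 in controls and 1.57 to 4.89 in CKOs. In these last 3 ratios the groups overlapped.

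Among H3K4 methyltransferases, Setd7 had the highest level of any enzyme examined. It monomethylates H3K4 and several proteins other than histones. Controls ranged from 17.5 to 26.7 FPKM (median 22.4) and CKOs from 14.1 to 25.2 FPKM (median 19.8). The ranges overlapped almost fully, with 1 CKO below the lowest control. On the log2 scale the change was -0.13 (95% interval -0.44 to 0.18), and -0.32 (95% interval -0.65 to 0.02) after scaling. After the GC and length correction it was -0.34 (95% interval -0.65 to -0.03), with an unadjusted P of 0.0346 and an adjusted P of 0.299 by limma. Setd1a and Setd1b, catalytic subunits of the COMPASS complexes that methylate H3K4, had log2 fold changes of 0.08 and -0.16, and -0.09 and -0.31 after scaling. Neither passed the unadjusted threshold by limma in either scaling.

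None of the 4 H3K36 methyltransferases passed the unadjusted threshold by limma in either scaling, although Whsc1l1 had an exact permutation P of 0.0303 as deposited. Setd2, which trimethylates H3K36 along transcribed genes, was 6.20 to 7.40 FPKM in controls (median 6.77) and 6.19 to 8.99 FPKM in CKOs (median 7.76). There were 4 CKO values that exceeded every control, and 1 lay below them all. For this gene the log2 fold change was 0.17 (95% interval -0.05 to 0.38), and -0.02 after scaling. Nsd1, which dimethylates H3K36, was at 6.60 ± 0.738 FPKM in controls and 7.30 ± 0.627 FPKM in CKOs (SD, n = 6 each), with a log2 fold change of 0.15 that became -0.04 after scaling. Whsc1l1 (Nsd3), of the same family, was at 1.82 ± 0.162 and 2.18 ± 0.315 FPKM, with a log2 fold change of 0.24 (95% interval -0.02 to 0.50) that became 0.06 after scaling. Whsc1 (Nsd2) had a log2 fold change of 0.05, and -0.13 after scaling.

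H3K9 methyltransferases were led by Ehmt1 and Ehmt2, the paired subunits (GLP and G9a) that dimethylate H3K9. Ehmt2 was 1.31 to 2.83 FPKM in controls (median 2.099) and 2.24 to 3.07 FPKM in CKOs (median 2.80). Several controls lay among the CKOs, and 2 CKOs exceeded every control. This gave a log2 fold change of 0.41 ± 0.168 (SE), with an adjusted P of 0.189 by limma, and 0.23 after scaling. Ehmt1 was at 2.81 ± 0.431 FPKM in controls and 3.23 ± 0.535 FPKM in CKOs (SD, n = 6 each). Between the groups the log2 fold change was 0.19 as deposited and 0.01 after scaling.

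The trimethylating H3K9 enzymes were less abundant. Setdb1, which acts at repeats and silenced genes, was 1.31 to 2.05 FPKM in controls (median 1.76) and 1.83 to 2.29 FPKM in CKOs (median 2.08), with 3 CKOs above every control. Its log2 fold change was 0.26 (95% interval -0.01 to 0.52), and 0.08 after scaling. Suv39h1, an enzyme of heterochromatin, was at 0.558 ± 0.164 FPKM in controls and 0.674 ± 0.169 FPKM in CKOs (SD, n = 6 each), a difference smaller than the SD of either group. The log2 fold changes of Suv39h2 and Setdb2 were -0.03 and 0.16, and -0.17 and -0.02 after scaling.

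Ezh1 and Ezh2 are the alternative catalytic subunits of Polycomb repressive complex 2 (PRC2), which methylates H3K27. Ezh1, the form typical of differentiated cells, was the more abundant in every library. Ezh1 was 2.53 to 3.33 FPKM in controls (median 3.07) and 2.91 to 4.12 FPKM in CKOs (median 3.78). In 4 CKOs the level exceeded every control, and the remaining CKOs lay within the control range. The log2 fold change was 0.26 (95% interval -0.01 to 0.52), and 0.07 after scaling. Ezh2 was 0.499 to 1.43 FPKM in controls (median 0.728) and 0.745 to 1.28 FPKM in CKOs (median 0.971), so the CKOs lay inside the control range. On the log2 scale the change was 0.30 (95% interval -0.16 to 0.75), and 0.13 after scaling.

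The PRDM family, zinc finger proteins with a SET-like domain of which only some are known methyltransferases, held the largest fold change. Prdm10 was at 0.271, 0.218, 0.172, 0.175, 0.256 and 0.0881 FPKM in controls 1 to 6. CKOs 1 to 6 were at 0.353, 0.502, 0.251, 0.544, 0.441 and 0.529 FPKM. CKO 3 lay among the controls, and the other 5 CKOs lay above them all. The means were 0.197 ± 0.0669 and 0.437 ± 0.115 FPKM (SD, n = 6 each). The log2 fold change was 0.86 ± 0.223 (SE), with an adjusted P of 0.0582 by limma, and 0.72 with an adjusted P of 0.133 after scaling. As deposited it passed the adjusted threshold without control 1 (adjusted P of 0.0245, limma), with sample weights (0.0261) and without the intensity trend (0.0435). In those settings 8.4%, 11% and 1.54% of all genes were called higher. The fit with all mice, the trend and no weights gave 2.02%. Over all 23 settings the adjusted P of Prdm10 ranged from 0.0245 to 0.217. At these levels few fragments stand behind each value, and without counts that error was not estimated.

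The other tested PRDM genes had smaller fold changes. Prdm2 (RIZ1), the PRDM gene with the highest level, was 2.13 to 3.68 FPKM in controls (median 3.003) and 2.52 to 3.29 FPKM in CKOs (median 2.98), with every CKO inside the control range. For this gene the log2 fold change was -0.02 (95% interval -0.32 to 0.28), and -0.20 after scaling. Prdm16, known for its role in the choice between brown fat and muscle, was 0.142 to 0.298 FPKM in controls (median 0.181) and 0.201 to 0.376 FPKM in CKOs (median 0.278). This gave a log2 fold change of 0.33 (95% interval -0.10 to 0.76), and 0.20 after scaling. Prdm1, Prdm4, Prdm8, Prdm9 and Prdm15 had log2 fold changes from -0.03 to 0.18, and from -0.21 to 0.06 after scaling.

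Among SET domain proteins with other substrates, Setd3 had the highest level. It methylates a histidine of actin. Controls ranged from 7.36 to 10.05 FPKM (median 9.18) and CKOs from 7.56 to 10.6 FPKM (median 9.35). Between the groups the log2 fold change was 0.03 (95% interval -0.20 to 0.26), and -0.15 after scaling. Setd5, a chromatin protein whose own methyltransferase activity is disputed, was 2.495 to 3.60 FPKM in controls (median 3.16) and 3.40 to 3.89 FPKM in CKOs (median 3.60). The CKO values were close together, with 3 of 6 above every control. On the log2 scale the change was 0.24 ± 0.112 (SE), with an adjusted P of 0.243 by limma, and 0.06 after scaling. Setd4 and Setd6 had log2 fold changes of 0.05 and -0.09, and -0.06 and -0.27 after scaling.

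All 7 tested Prmt genes, which encode arginine methyltransferases, had positive log2 fold changes as deposited, from 0.14 to 0.63. Of all genes 77.9% were positive, and none of the 7 passed the unadjusted threshold by limma. After scaling 6 of 7 were positive, where 51.2% of all genes were. Carm1 (Prmt4), an arginine methyltransferase that the symbol rule did not take, went the other way. Its log2 fold change was -0.04 as deposited and -0.23 after scaling. Prmt1, the main source of asymmetric dimethylarginine, was 3.75 to 9.37 FPKM in controls (median 5.27) and 4.65 to 8.33 FPKM in CKOs (median 7.45). The CKOs lay inside the wide control range, and the log2 fold change was 0.29 (95% interval -0.12 to 0.70). Prmt5, which makes symmetric dimethylarginine, was at 4.22 ± 0.980 FPKM in controls and 4.91 ± 0.717 FPKM in CKOs (SD, n = 6 each).

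Prmt7, which monomethylates arginine, was 3.91 to 5.91 FPKM in controls (median 4.58) and 4.29 to 6.80 FPKM in CKOs (median 5.14). Its log2 fold change was 0.14 as deposited and -0.05 after scaling. Prmt10 (Prmt9), an enzyme that methylates a splicing factor, was 1.63 to 2.16 FPKM in controls (median 1.83) and 1.33 to 2.79 FPKM in CKOs (median 2.58). In 4 CKOs the level exceeded every control and 1 lay below them. The log2 fold change was 0.30 (95% interval -0.07 to 0.66), and 0.12 after scaling.

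Of the erasers, Kdm1a (LSD1) showed the lowest P by limma as deposited, though not in every other setting. It is a flavin-dependent demethylase of H3K4 that acts with CoREST in gene repression. Controls ranged from 2.13 to 3.21 FPKM (median 2.76) and CKOs from 2.87 to 4.44 FPKM (median 3.80). In 4 CKOs the level exceeded every control and the remaining CKOs lay inside the control range. On the log2 scale the change was 0.41 ± 0.143 (SE), with an adjusted P of 0.137 by limma, and 0.23 after scaling. With sample weights its adjusted P was 0.0328, a setting in which 11.0% of all genes were called higher and 0.906% lower (29.2% and 2.5% at the unadjusted threshold, where the enzymes gave 15 higher and 1 lower). Over all 24 settings the adjusted P of Kdm1a ranged from 0.0328 to 0.524. Its relative Kdm1b (LSD2) was at 1.56 ± 0.252 FPKM in controls and 1.89 ± 0.227 FPKM in CKOs (SD, n = 6 each), and was named after its values were seen.

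There were 3 of the 12 tested Jumonji demethylases higher at the unadjusted threshold as deposited (18.1% of all genes), and 0 after scaling (6.62% of all genes). Kdm4b, which removes methyl groups from H3K9, was 0.965 to 1.65 FPKM in controls (median 1.24) and 1.30 to 1.89 FPKM in CKOs (median 1.78). In 4 CKOs the level exceeded every control. The log2 fold change was 0.40 ± 0.15 (SE), with an adjusted P of 0.164 by limma, and 0.22 after scaling. Its relative Kdm4a was 2.36 to 2.79 FPKM in controls (median 2.61) and 2.58 to 3.58 FPKM in CKOs (median 3.04), with only CKO 4 inside the control range. For this gene the log2 fold change was 0.23, and 0.05 after scaling. Kdm8, an enzyme named as an H3K36 demethylase, was at 0.360 ± 0.167 FPKM in controls and 0.617 ± 0.205 FPKM in CKOs (SD, n = 6 each), with a log2 fold change of 0.66 (95% interval 0.10 to 1.23). Kdm4a and Kdm8 were named after their values were seen.

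The Jumonji gene with the highest level was Kdm7a, a demethylase of H3K9 and H3K27. It was 5.62 to 8.44 FPKM in controls (median 7.12) and 6.54 to 8.71 FPKM in CKOs (median 7.88). This gave a log2 fold change of 0.13 (95% interval -0.11 to 0.37), and -0.05 after scaling. Kdm6b (JMJD3), which removes H3K27 methylation, was 0.766 to 1.86 FPKM in controls (median 1.39) and 0.890 to 1.32 FPKM in CKOs (median 1.15). Every CKO lay inside the control range, and the log2 fold change was -0.17 (95% interval -0.57 to 0.23). After scaling it was -0.35 (95% interval -0.81 to 0.12), and after the GC and length correction -0.38, with an unadjusted P of 0.0475 and an adjusted P of 0.340 by limma. The remaining Jumonji genes had log2 fold changes from -0.01 (Kdm2b) to 0.32 (Kdm3a), and from -0.17 to 0.14 for the same genes after scaling.

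**Figure D4:**
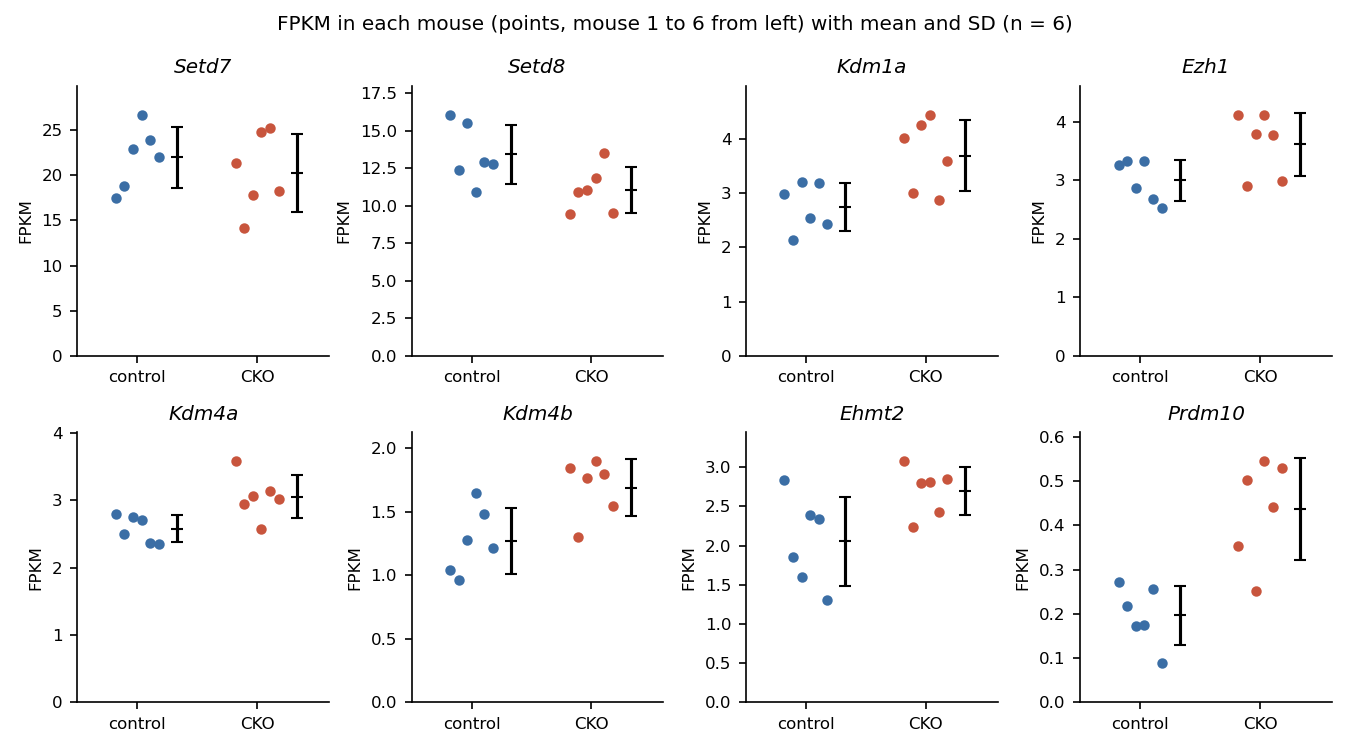
FPKM of 8 enzymes in each control and CKO mouse (points, mice 1 to 6 from left to right) with the mean and SD (n = 6 each). The groups overlap in every panel, by a single CKO in Prdm10 and in Kdm4a. In Setd8, 3 CKOs lie below all controls, of which CKO 2 (10.9007 FPKM) is almost level with the lowest control (10.9028 FPKM).

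Summed over all 60 genes, the enzymes made up 147 ± 9.63 FPKM in controls and 158 ± 12.4 FPKM in CKOs (SD, n = 6 each). As a share of all FPKM in a library this was 0.117 ± 0.00992% and 0.124 ± 0.00886%. The lowest share was that of control 1 at 0.0967%, which also had the lowest sample weight of the 12 libraries in limma (0.346). The median within-group SD on the log2 scale was 0.262 for the 53 tested enzymes and 0.318 for all tested genes. Their median FPKM was 1.92 against 1.67 and their median transcript length 4663 against 3395 bases. Kdm5a was the steadiest (SD 0.114) and Prmt2 the most variable (SD 0.763).

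Partners and related enzymes outside the 60 genes were listed by hand, and 89 of 97 in the files were tested. At the adjusted threshold 2 were higher and 2 lower as deposited (2.02% and 0.268% of all genes), and 0 and 2 after scaling (0.764% and 0.709%). At the unadjusted threshold the counts were 17 and 2 (18.1% and 1.76% of all genes), and 6 and 5 after scaling (6.62% and 7.44%). Their median log2 fold change was 0.16, near that of all genes. The lower pair were methyltransferases. Smyd2, a lysine methyltransferase of the same family as Smyd1, was 53.8 to 73.7 FPKM in controls and 19.6 to 35.1 FPKM in CKOs, without overlap. Between the groups the log2 fold change was -1.38 ± 0.138 (SE), with an adjusted P of 0.000289 by limma, and -1.57 after scaling. Mettl11b, an N-terminal methyltransferase, was at 4.18 ± 0.951 FPKM in controls and 1.40 ± 0.745 FPKM in CKOs (SD, n = 6 each), with a log2 fold change of -1.60.

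The higher pair were Aebp2, a PRC2 subunit, and Mthfd1, an enzyme of folate metabolism. Aebp2 was at 4.64 ± 0.751 FPKM in controls and 7.06 ± 1.34 FPKM in CKOs (SD, n = 6 each). Its adjusted P was 0.0441 as deposited and 0.143 after scaling, by limma. All 9 PRC2 subunits listed beside Ezh1 and Ezh2 had positive log2 fold changes, 5 of them past the unadjusted threshold, with a median of 0.24. Of all genes 77.9% were positive and 18.1% higher at that threshold. After scaling 6 of 9 were positive, 3 were past the unadjusted threshold and the median was 0.06, where 51.2% of all genes were positive and 6.62% higher. Of the COMPASS subunits 3 of 15 were higher at the unadjusted threshold, of the CoREST partners 1 of 10, of the Jumonji proteins outside the rule 0 of 12, of the methyl-lysine readers 3 of 14 and of the S-adenosylmethionine supply genes 3 of 13. After scaling these counts were 0, 1, 0, 0 and 1. Among 16 methyltransferases outside the rule, 2 rose and 2 fell by the unadjusted test as deposited. With scaling 1 rose (Mettl10) and 4 fell, where 6.62% and 7.44% of all genes did. Besides Smyd2 and Mettl11b, those that fell were Mettl21c and Mettl22, with scaled log2 fold changes of -0.93 and -0.37. Their adjusted P values by limma after scaling were 0.227 and 0.145.

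Some markers of cell types differed between the groups at the unadjusted threshold, at which 18.1% of all genes were higher. Fast fiber markers were abundant in all libraries, with a summed level of 24723 to 40288 FPKM in controls and 28000 to 33565 FPKM in CKOs. Their genes moved in both directions: of 11, 2 rose and 1 fell by the unadjusted test as deposited, against 2 and 5 after scaling, where 7.44% of all genes were lower. Myh1, a fast myosin heavy chain, was higher past the adjusted threshold in both scalings (log2 fold change 1.05, and 0.86 after scaling). The lower ones after scaling were Acta1, Tnnt3, Tnni2, Actn3 and Pvalb. Of 8 slow fiber markers 7 were higher at the unadjusted threshold, and 6 after scaling, with a sum of 18.8 to 52.1 FPKM in controls and 26.9 to 292 FPKM in CKOs. Myl3 went the other way, with a log2 fold change of -0.52, and -0.70 after scaling, where it passed the unadjusted threshold. The CKOs differed widely among themselves: Myh7 was at 16.5, 0.438, 7.81, 2.51, 0.419 and 37.5 FPKM in CKOs 1 to 6. Of 8 satellite cell and myoblast markers 6 were higher and 4 after scaling, with a sum of 6.44 to 16.5 and 15.6 to 23.8 FPKM. For Schwann cells 3 of 6, fibroblasts 2 of 8, adipocytes 1 of 3, endothelial cells 0 of 8, macrophages 0 of 8 and proliferating cells 0 of 6 were higher as deposited. After scaling these counts were 0, 1, 0, 0, 0 and 0, where 6.62% of all genes were higher. The 6 lymphocyte markers were all below the minimum level. Their part in the values of the enzymes was not tested.

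Exons of 26 of the 60 genes overlap those of another gene in the GENCODE annotation, 5 on the same strand and 24 on the opposite strand, with some genes in both counts. Whether strand was used in counting was not stated. For Kdm1b, Kdm2b, Kdm5a, Kdm7a, Prmt2, Prmt7, Setd7, Setdb1, Suv39h2 and Whsc1 the partner is also listed in the files, so reads of these genes and their partners may not have been told apart.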

How the data were processed

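RNA depleted of ribosomal RNA was sequenced from 12 tibialis anterior muscles, 6 control and 6 CKO. The authors trimmed adapters, aligned the reads to the mouse genome (mm9) with bowtie2 and TopHat2 2.0.10, discarded reads with several alignments and deposited FPKM per gene from Cufflinks 2.1.1. The annotation was not given in the sources used here, nor were counts, so no count test was run. Ratios of low values between libraries gave depths of 0.986 to 1.77 relative to control 1, but a share of only 0.179 to 0.283 of the genes used lay at the most common ratio, so these were not used and the depth is unknown.

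Of 23950 rows, 27 whose symbols had turned into dates were dropped. The 12695 genes that reached 0.1 FPKM in 6 or more libraries were fitted with limma 3.58.1 (R 4.3.3) with an intensity trend on log2(FPKM + 0.1), as deposited, with Benjamini-Hochberg adjustment over all genes. The study's methods used a count model, which these values do not allow. Within-group correlations were 0.943 to 0.972. The procedure was tested on simulated data.

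Alternatives were a pseudocount of 1, a filter set at 1 FPKM or left out, quantile normalization, scaling by median ratios, a correction for GC content and transcript length (98.6% of genes had both), the replicate number as a block, no trend, sample weights, exact permutation and each mouse left out. The enzyme families and the lists were chosen with earlier results of these data known, although the rule for the enzymes reads only symbols. Genes were named if past the adjusted threshold, if the groups did not overlap, if they had the lowest P or highest level in their class, or if known from muscle. Old symbols in the files were matched to current ones, and 47 genes to RefSeq promoters (GRCm38.p6, first listed start). P values cover the spread between mice. The values of 1 enzyme are not reported here singly, and it is left out of the plots that name genes; counts and medians include it.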

Additional observations from a re-analysis of the deposited data

Results flagged for a closer look

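In 4 of 106 groups of 6 mice (53 enzymes in 2 groups), 1 value stood apart from the others by Dixon's criterion at 95%, which chance alone gives in about 1 of 20 groups. Kdm1b was low in control 2, at 1.07 FPKM, where the other controls were at 1.53 to 1.73. Prdm8 was high in CKO 1, at 0.335 FPKM, against 0.126 to 0.192 in the other CKOs. Setd6, which methylates a subunit of NF-kB, stood high in 1 mouse of each group, at 3.12 FPKM in control 3 (others 1.66 to 2.17) and at 2.82 FPKM in CKO 5 (others 1.59 to 2.01). By limma as deposited these 3 genes did not pass the unadjusted threshold, while Kdm1b had an exact permutation P of 0.0325.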

How the results depend on the processing

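The count of enzymes past the adjusted threshold changed from 0 to 1 higher without the trend (Prdm10) and 2 with sample weights (Kdm1a and Prdm10). Of all genes, 1.54% and 11% were higher in these settings. With a mouse left out the count was 0 to 1 (Prdm10 without control 1, where 8.4% of all genes were higher). After median-ratio scaling 1 was lower (Setd8), where 0.709% of all genes were. At the unadjusted threshold 7 were higher as deposited, 1 after median-ratio scaling, quantile normalization or the length and GC correction with or without the replicate block, 15 with sample weights, 12 by exact permutation and 4 to 13 with a mouse left out (13 without control 1, 4 without CKO 1, 11 without CKO 2). Of all genes, 27% were higher without control 1, 13.7% without CKO 1 and 18.7% without CKO 2. The share was 6.62% after median-ratio scaling and 6.38% after quantile normalization. It was 6.36% after the length and GC correction and 6.53% with the block added. The number lower was 1 as deposited and 2 after median-ratio scaling or quantile normalization (7.44% and 6.59% of all genes). The length and GC correction without or with the block gave 4 (7.96% and 8.05% of all genes). The number lower was 0 with the replicate block alone or without the trend (1.97% and 1.69% of all genes). It was 0 to 1 with a mouse left out, being 0 without control 1, control 3, CKO 1 or CKO 6.

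The median log2 fold change of the enzymes became 0.0101 after median-ratio scaling, 0.000582 after quantile normalization and reversed to -0.026 after the length and GC correction, with or without the block. That correction also removes a shift of a whole library. Among the genes chosen by the naming rule, reversed in sign were Kdm7a (-0.054 median-ratio, -0.017 quantile, -0.063 length and GC with or without the block), Prmt7 (-0.046, -0.032 and -0.052), Setd3 (-0.15, -0.11 and -0.14), Setd2 (-0.020 median-ratio, -0.041 length and GC with or without the block) and Ehmt1 (-0.013 length and GC with or without the block). With a mouse left out, Prdm2 was -0.11 to 0.043 and Setd3 -0.022 to 0.087. None of these genes passed a threshold in those settings.

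Mice with the same replicate number did not deviate together: correlations were -0.086 to 0.16, and 2 of 6 controls correlated best with their own number, so the numbers were not taken as pairs. With the block, 8 enzymes were higher at the unadjusted threshold, where 19.2% of all genes were. The alternatives for Setd8 after scaling were chosen after seeing the data. The depth behind low FPKM is unknown.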
